A study of Mus musculus with 17 samples.

Results

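The serpins are a superfamily of proteins that share one fold and, for most members, trap a serine or cysteine protease in a suicide complex. The genes described here are all those whose symbol begins with Serpin, without the Serpina3 genes: 49 of the 22180 genes that the arrays measured in periprostatic fat, the adipose tissue around the prostate. They were chosen by symbol, with no measured value in the rule, but with earlier results of these data known. By the letter after Serpin they fall into 15 genes of clade A, 25 of clade B, 2 each of clades F and I, and 1 each of clades C, D, E, G and H.

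RNA came from 17 male C57BL/6J mice, each hybridised to its own Affymetrix Mouse Gene 2.0 ST array. The 5 HFD+CR mice ate a high-fat diet with 60% of its calories as fat from 6 weeks of age for 12 weeks, and then for 7 weeks were given 70% of the amount that the HFD mice ate, a restriction of 30%. The 6 HFD mice ate the same diet without limit for the whole time. The 6 LFD mice ate a diet with 10% of its calories as fat, also without limit. All mice were killed at 25 weeks of age, so the groups shared sex, strain and age, and no group of restricted mice on the low-fat diet is part of the comparison. The question is which serpin transcripts differ with high-fat feeding (HFD minus LFD), which differ when intake is then restricted (HFD+CR minus HFD), and which differ between restricted mice and mice on the low-fat diet (HFD+CR minus LFD).

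Clade A holds mostly secreted serpins of blood plasma, made in large part by the liver, among them inhibitors of elastase and carriers of hormones. Clade B serpins stay inside cells and protect them from granzymes, cathepsins and other proteases, and in the mouse many of them have multiplied into clusters of near copies. The single members of the later clades include regulators of complement, clotting, blood vessel growth and collagen folding, and fat is a known source of several of them.

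Signals are log2 values, and 1 unit is a doubling. Array medians ran from 7.03 to 7.15. Median correlations across genes between arrays were 0.993 within groups and 0.985 between groups. Each difference is a log2 difference ± SE, and each adjusted p is limma's, after Benjamini-Hochberg adjustment for all 22180 genes. A gene is called higher or lower where that adjusted p is under 0.05. In bulk tissue, fewer cells of a type and less RNA per cell cannot be told apart. Adipocyte genes showed the labelled tissue: Adipoq averaged 11.65, Plin1 12.84 and Fabp4 14.03 over all mice. Single arrays also carried transcripts of neighbouring tissue. The mean of 12 skeletal muscle genes, relative to the median mouse, was 2.19 in HFD+CR mouse 2, 1.05 in HFD mouse 6, 3.36 in LFD mouse 2, 2.18 in LFD mouse 3 and 0.82 in LFD mouse 5. The mean of 13 prostate and accessory gland genes was 1.39 in HFD mouse 3 and 2.20 in LFD mouse 3, and that of 10 male germ cell genes was 1.66 in HFD+CR mouse 1. Serpins that lose or gain a call without these 7 arrays, or without the 4 with the clearest muscle or gland signal (HFD+CR mouse 2, HFD mouse 3, LFD mice 2 and 3), are given both ways.

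High-fat feeding moved a small set of serpins, most of them upward and most of them among the well-expressed members. Of the 49 genes, 10 were higher in HFD than in LFD, which is 20.4% against 16.5% of all genes, and 2 were lower, which is 4.08% against 11.3% of all genes. Among the 10 members whose mean signal lay above every array's median, 8 were higher (80%, against 25.8% of the 12555 genes at that level), and none was lower, against 15.6% (limma; none was lower at an unadjusted p under 0.05 either). Among the 39 dimmer members there were 2 of each kind (5.13% each), against 4.41% and 5.64% of genes at that level. The mean that sets these levels takes in the HFD arrays. Serpinb9b lay above the median on 14 of the 17 arrays, so it counts as bright through the groups where it was high. Of the 9 members above the median on every array, 7 were higher (77.8%) and none lower, against 16.5% and 11.3% of all genes. The share among all genes above the median on every array was not counted, and the shares over all genes take in dim ones, so they are an unlike baseline. At 1.5-fold or more 3 members were higher (3.74% of all genes) and none lower (1.36% of all genes). The median difference was -0.01 over the 49 members and 0.00 over all genes. The values of HFD and LFD mice did not overlap for 7 members, or 14.3%, the same share as over all genes (14.3%).

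Restriction of intake moved fewer serpins. In HFD+CR against HFD, 5 members were lower (10.2%, against 11.3% of all genes) and none was higher (against 7.69% of all genes; by limma 2 were higher at an unadjusted p under 0.05). All 5 had been higher in HFD than in LFD: Serpinb6b, Serpinb8, Serpinb9, Serpinb9b and Serpinh1. By level, 5 of the 10 bright members were lower, against 17.8% of genes as bright, and none of the 39 dimmer ones, against 2.81%. No bright or dim member was higher, against 12.1% and 1.96%. Of the 9 members above the median on every array, a set without Serpinb9b, 4 were lower and none higher. The share among all genes of that kind was not counted here either. At 1.5-fold or more 1 member was lower (2.27% of all genes) and none higher (0.857% of all genes). Both comparisons use the HFD mice, so the overlap is a count and not a separate result. Over all genes 56.9% of those higher in HFD were lower in HFD+CR. Set against LFD, 5 members were higher in HFD+CR (10.2%, against 5.8% of all genes): Serpinb6b, Serpinb9b, Serpinb9f, Serpinf1 and Serping1. Serpinb6b, Serpinb9b, Serpinf1 and Serping1 were also called higher in HFD than in LFD, and Serpinb9f was not. None was lower by limma, against 3.28% of all genes, and 3 were at an unadjusted p under 0.05. Of the bright members 4 of 10 were higher, against 9.4% of genes as bright, and of the dimmer ones 1 of 39, against 1.11%, while lower calls stood at 5.17% and 0.821% of such genes. Of the 9 above the median on every array, 3 were higher and none lower, again with no share counted for all such genes. At 1.5-fold or more 1 member was higher (0.929% of all genes) and none lower (0.442% of all genes). The groups' values did not overlap for 4 members in HFD+CR against HFD, where 13.7% of all genes did not, and for 3 in HFD+CR against LFD, where 6.67% of all genes did not. In all, 13 members were called in at least 1 comparison and 36 in none.

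**Figure D1:**
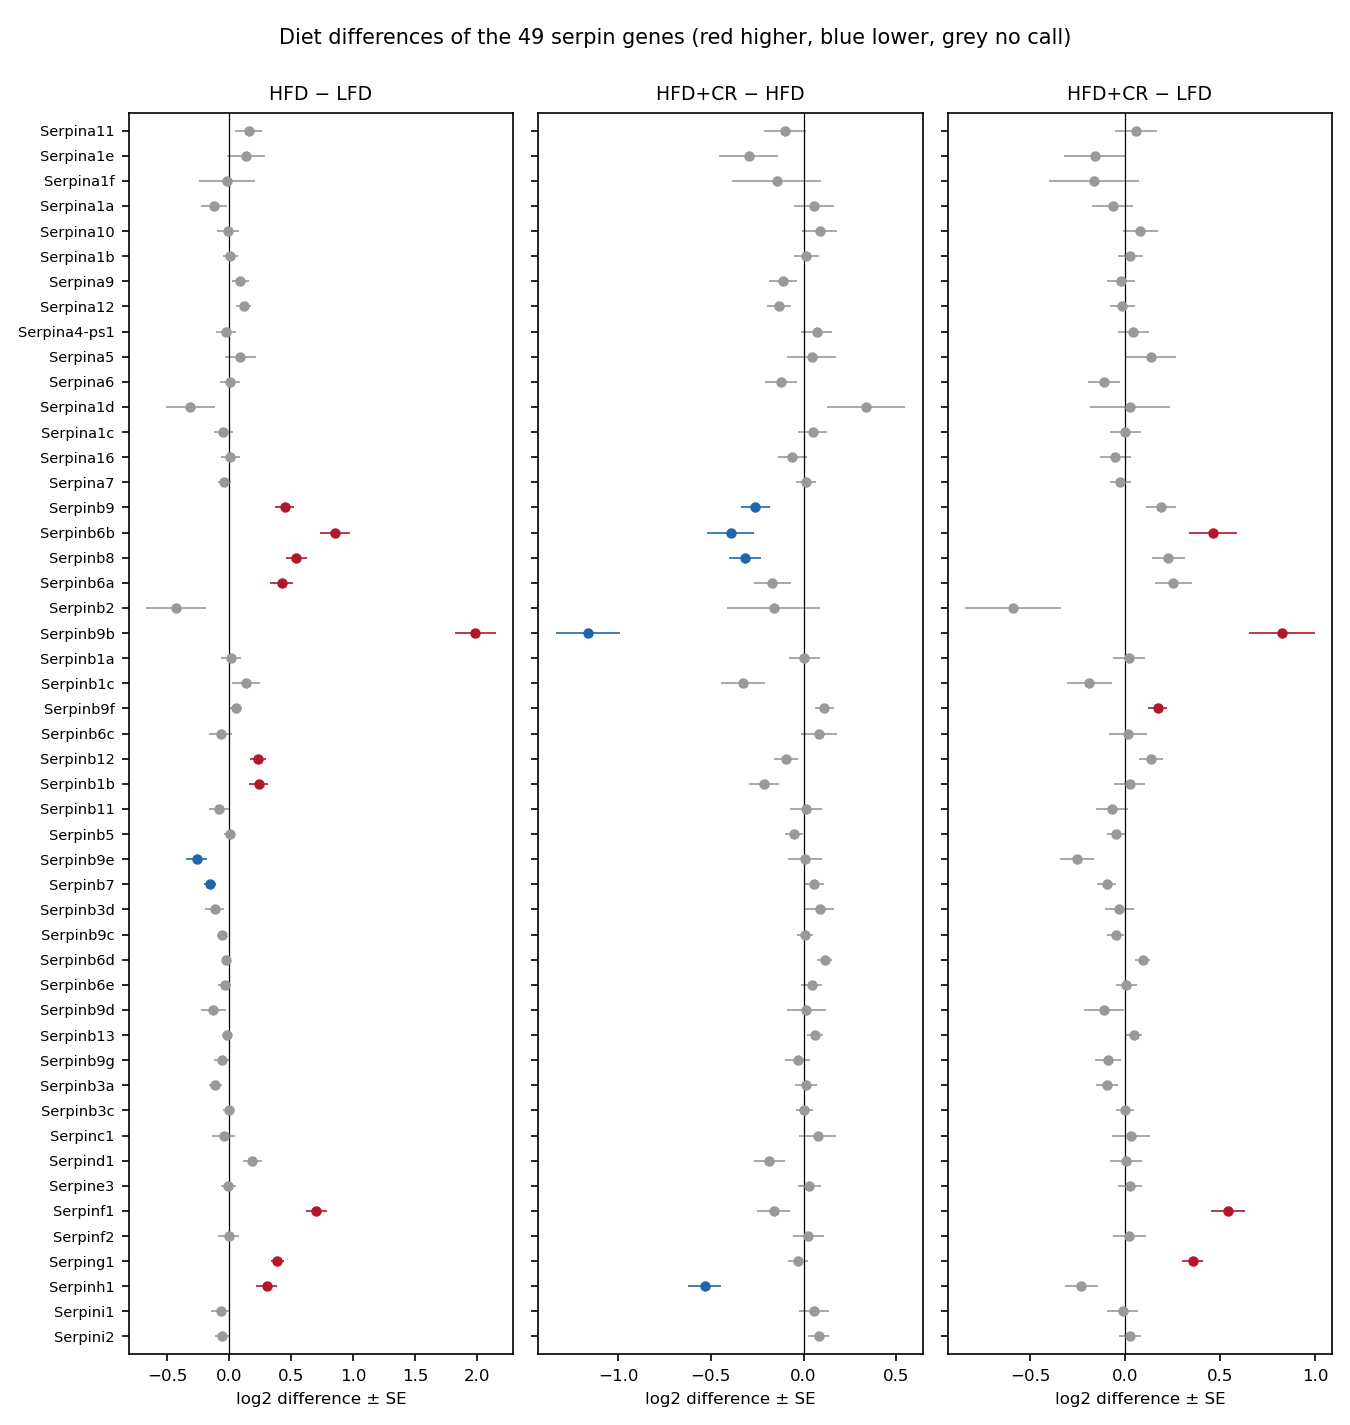
Log2 difference ± SE (horizontal axis) of each of the 49 serpin genes (vertical axis, by clade and then by mean signal) for HFD minus LFD, HFD+CR minus HFD and HFD+CR minus LFD. Red points were called higher, blue points lower and grey points neither; the 10 red points at left are mostly clade B genes, Serpinb9b reaches 1.99, and all of clade A is grey.

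The clade B serpins showed the widest changes, and Serpinb9b led them. It is a mouse relative of Serpinb9 that has been reported to inhibit granzyme M, a protease of cytotoxic lymphocytes. Serpinb9b signals were 8.24, 7.18, 7.65, 8.35 and 7.99 in HFD+CR mice. In HFD mice they ran from 8.70 to 9.54 with a median of 8.97, and in LFD mice from 6.92 to 7.20 with a median of 7.06. Every HFD mouse lay above every other mouse, and 1 of the 5 HFD+CR mice, mouse 2, lay within the LFD range. Serpinb9b was 3.96-fold higher in HFD than in LFD (1.99 ± 0.17, adjusted p 7.97e-08). It was lower in HFD+CR than in HFD by -1.16 ± 0.17 (adjusted p 0.000121), and higher in HFD+CR than in LFD by 0.82 ± 0.17 (adjusted p 0.00536). The LFD signals lay near the array medians. A second, dimmer Serpinb9b probe set, with a mean of 5.50, differed by 0.27 in HFD against LFD, by -0.25 in HFD+CR against HFD and by 0.02 in HFD+CR against LFD. These have adjusted p of 0.00283, 0.00967 and 0.923 by limma over all probe sets with 1 symbol, so the last call rests on the brighter probe set.

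Serpinb6b, an inhibitor of granzyme A in the mouse, measured 8.92, 8.71, 8.98, 8.58 and 8.27 in HFD+CR mice. HFD mice ran from 8.92 to 9.34 with a median of 9.04, and LFD mice from 7.91 to 8.43 with a median of 8.31. HFD mice lay above all LFD mice, while HFD+CR mice spread over the gap and touched both ranges. It was 1.81-fold higher in HFD than in LFD (0.86 ± 0.12, adjusted p 2.54e-05), a call that none of the alternatives ended. The HFD+CR differences, -0.39 ± 0.13 from HFD (adjusted p 0.0344) and 0.46 ± 0.13 from LFD (adjusted p 0.0258), were less firm. The call against HFD was lost without any 1 of HFD+CR mice 2, 4 and 5 or HFD mice 1, 2 and 6 (adjusted p up to 0.111). The call against LFD was lost without any 1 of HFD+CR mice 1, 2 and 3 or LFD mice 1 and 3 (adjusted p up to 0.0813). Without the 4 arrays with muscle or gland transcripts the call against LFD was lost (0.42, adjusted p 0.103). Without the 7 arrays both were lost, at -0.45 from HFD (adjusted p 0.0886) and 0.33 from LFD (adjusted p 0.369).

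Serpinb9, which shields lymphocytes and antigen-presenting cells from their own granzyme B, was the brightest clade B member. It measured 9.92, 9.91, 9.80, 9.72 and 9.69 in HFD+CR mice, 9.91 to 10.29 with a median of 10.04 in HFD mice, and 9.45 to 9.78 with a median of 9.63 in LFD mice. HFD mice all exceeded LFD mice, and HFD+CR mice ran from inside the LFD range to just inside the HFD range. Serpinb9 was higher in HFD than in LFD by 0.45 ± 0.08 (adjusted p 0.000184) and lower in HFD+CR than in HFD by -0.26 ± 0.08 (adjusted p 0.0269). The HFD+CR call was lost without any 1 of HFD+CR mice 3, 4 and 5 or HFD mice 1 and 2 (adjusted p up to 0.0783).

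Serpinb8, which inhibits the proprotein convertase furin in vitro, measured 8.47, 8.78, 8.64, 8.46 and 8.46 in HFD+CR mice. HFD mice ran from 8.62 to 9.13 with a median of 8.91, and LFD mice from 8.07 to 8.44 with a median of 8.39. All LFD mice lay below all mice of both other groups. Serpinb8 was higher in HFD than in LFD by 0.54 ± 0.08 (adjusted p 6.41e-05) and lower in HFD+CR than in HFD by -0.32 ± 0.09 (adjusted p 0.0148). Its difference of 0.23 ± 0.09 between HFD+CR and LFD was not called (adjusted p 0.124), although the values did not overlap. Without the 7 arrays with muscle, gland or germ cell transcripts the call of HFD+CR against HFD was lost (-0.34, adjusted p 0.0984).

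Serpinb6a, which inhibits cathepsin G and trypsin-like proteases, was higher in HFD than in LFD by 0.42 ± 0.09 (adjusted p 0.00224). HFD mice ran from 8.43 to 8.76, against 7.89 to 8.65 in LFD mice, and the overlap came from LFD mouse 2 alone at 8.65, the array with the highest muscle list. Without the 4 arrays with muscle or gland transcripts the difference was 0.53 (adjusted p 0.000211). HFD+CR mice lay between 8.36 and 8.51 and differed by call from neither group over all arrays. Their difference from LFD, 0.25 (adjusted p 0.133), was called without the 4 arrays (0.38, adjusted p 0.0124) and without the 7 arrays (0.45, adjusted p 0.0209). A further probe set that the annotation gives to both 1110046J04Rik and Serpinb6a differed by 0.23 in HFD against LFD, with no call (adjusted p 0.0951).

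The remaining called members of clade B were dim on every array and moved by less. Serpinb12, an inhibitor of trypsin-like proteases, was higher in HFD than in LFD by 0.23 and Serpinb1b, a relative of the leukocyte elastase inhibitor, by 0.24. Serpinb7, known as megsin in the kidney, was lower by -0.16 and the Serpinb9 relative Serpinb9e by -0.26. Serpinb9f was higher in HFD+CR than in LFD by 0.17. All of these lie below the median of every array, and only Serpinb12 kept its call without each single mouse. Serpinb1b was lost without any 1 of HFD mice 4 and 5 or LFD mice 4 and 5. Serpinb7 was lost without LFD mouse 5 or 6, and Serpinb9e without any 1 of HFD mice 2 and 4 or LFD mice 2, 5 and 6. Serpinb9f was lost in 12 of the 17 fits that left out a mouse. Without the 7 arrays with muscle, gland or germ cell transcripts all 5 calls were lost: Serpinb12 at 0.25 (adjusted p 0.105), Serpinb1b at 0.31 (adjusted p 0.0878), Serpinb7 at -0.13 (adjusted p 0.266), Serpinb9e at -0.33 (adjusted p 0.0768) and Serpinb9f at 0.24 (adjusted p 0.098). Without the 4 arrays Serpinb7, Serpinb9e and Serpinb9f were lost (adjusted p 0.0775, 0.107 and 0.119).

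Not every clade B gene with a mean above the array medians moved, and Serpinb1a lay nearest to those medians. Serpinb1a, which inhibits neutrophil elastase and cathepsin G, averaged 7.54 in HFD+CR mice, 7.54 in HFD mice and 7.52 in LFD mice, and its difference between HFD and LFD was 0.01 ± 0.08. Serpinb2, plasminogen activator inhibitor 2, varied widely within groups: 7.69, 8.42, 7.62, 7.82 and 7.66 in HFD+CR mice, 7.20 to 8.72 in HFD mice and 7.69 to 8.99 in LFD mice. Its differences of -0.43 ± 0.24 in HFD against LFD and -0.59 ± 0.25 in HFD+CR against LFD were not called (adjusted p 0.217 and 0.174). A probe set shared by Serpinb10 and Serpinb2 differed by -0.11 and -0.49 in these comparisons, also without a call.

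**Figure D2:**
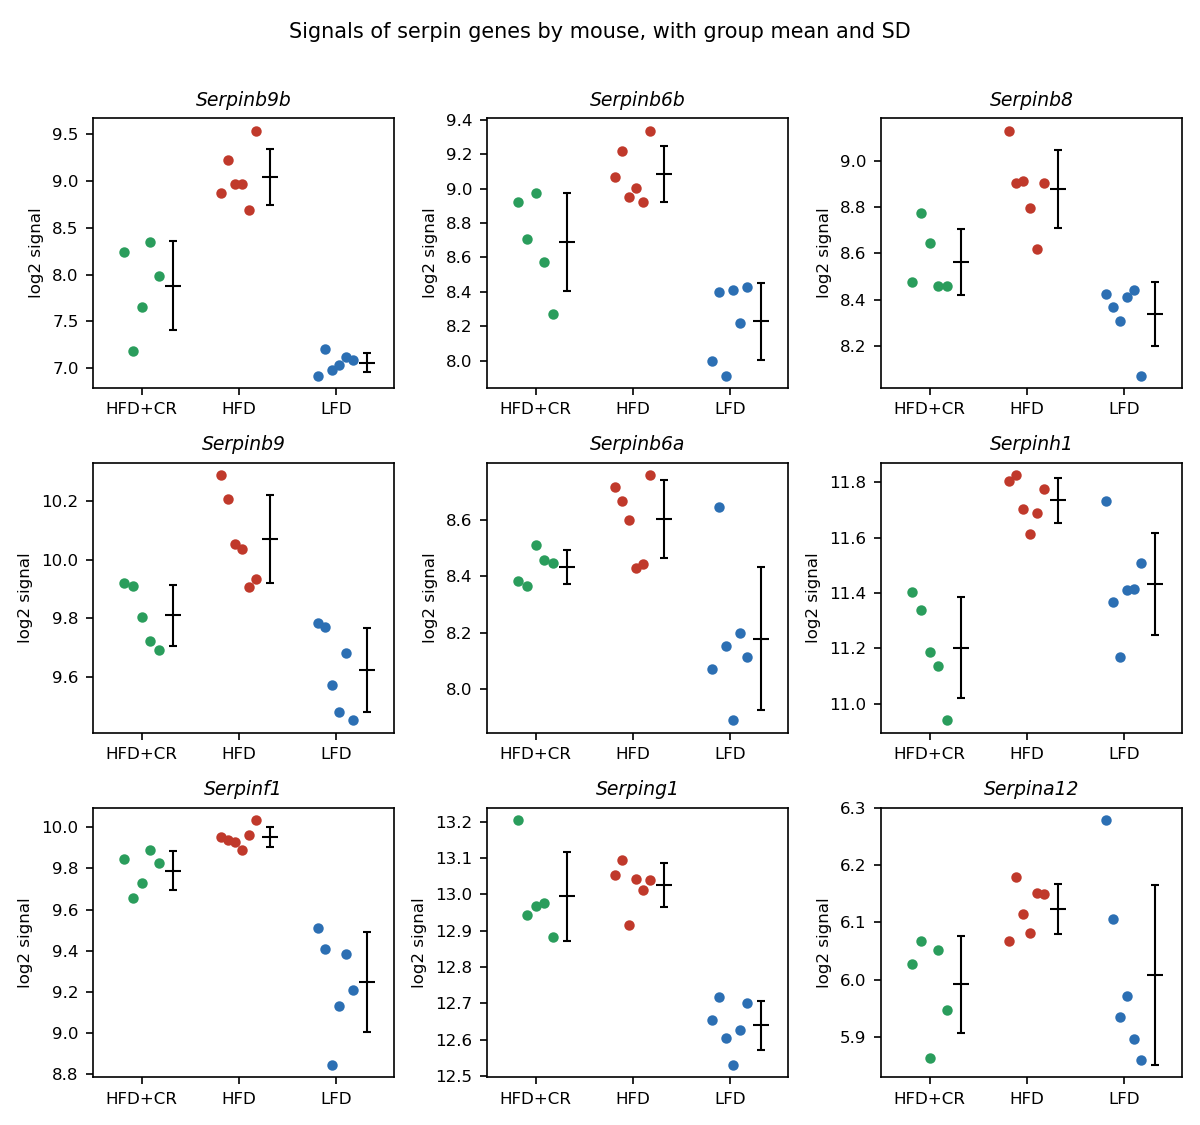
Log2 signal (vertical axes, each panel on its own range) of 9 serpin genes by mouse in HFD+CR, HFD and LFD, 1 point per mouse, with the group mean and SD beside the points. HFD mice stand above LFD mice in Serpinb9b, Serpinb6b, Serpinb8, Serpinb9, Serpinf1 and Serping1. HFD+CR mice stand near HFD for Serpinf1 and Serping1. They lie below every HFD mouse for Serpinb9b, Serpinh1 and, by a very narrow gap, Serpinf1.

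Some of the genes that moved are neighbours. In RefSeq's gene order Serpinb6b, Serpinb9, Serpinb9b and Serpinb1b follow each other on mouse chromosome 13, where 15 members lie, and Serpinb8 closes the clade B cluster on chromosome 1. Of the 15, 5 were higher in HFD than in LFD (33.3%, against 16.5% of all genes) and 1 was lower (6.67%, against 11.3% of all genes). Serpinb9c, Serpinb9d, Serpinb9e, Serpinb9f and Serpinb9g, which follow farther along the cluster, had means of 5.09 to 6.41, below every array's median, and none of them was higher in HFD (by limma, nor at an unadjusted p under 0.05). Because these genes are near copies, array probes may bind more than one of them, and their signals are uncertain as measures of a single gene.

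**Figure D3:**
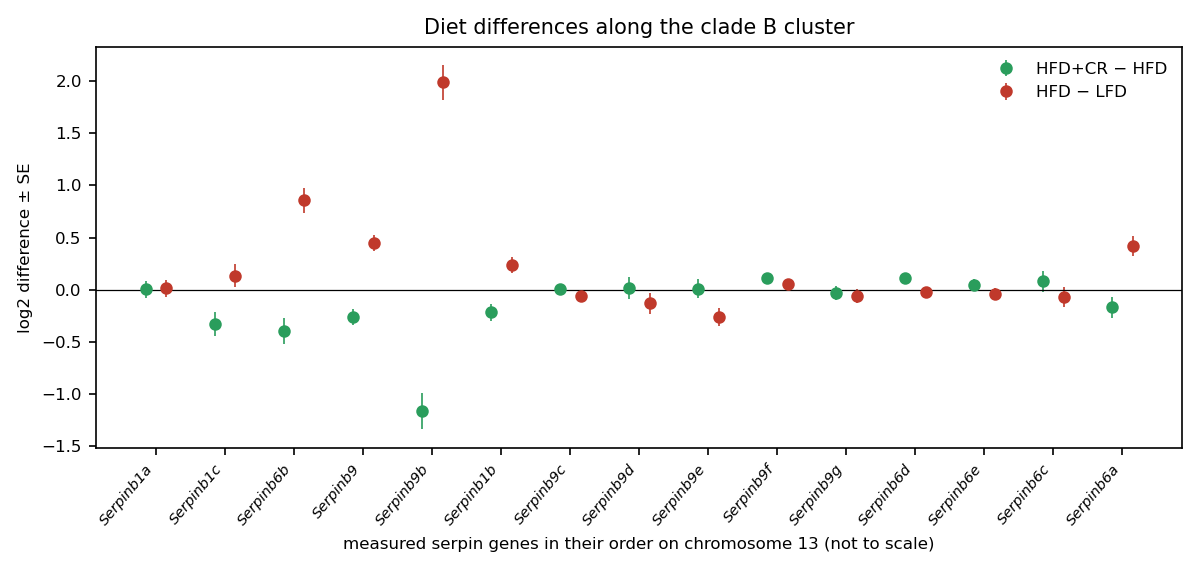
Log2 difference ± SE (vertical axis) of the 15 measured serpin genes on chromosome 13 in their order along the chromosome (horizontal axis, not to scale), for HFD+CR minus HFD in green and HFD minus LFD in red. The red points of Serpinb6b, Serpinb9 and Serpinb9b, at 0.86, 0.45 and 1.99, stand together, with the green points of the same genes below 0; the 5 genes from Serpinb9c to Serpinb9g lie between -0.26 and 0.11.

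Promoters are printed for the 5 members called higher in HFD than in LFD and lower in HFD+CR than in HFD. They were picked by these calls, and 56.9% of all genes higher in HFD had both. Each runs from 250 bases before to 50 bases after the annotated start, 5′ to 3′ on the strand of the gene, from RefSeq on GRCm38.p6. Of the 49 members 42 matched an entry. The positions are chr13:32965011-32965310 (plus strand) for Serpinb6b, chr13:33004291-33004590 (plus) for Serpinb9, chr13:33027164-33027463 (plus) for Serpinb9b, chr1:107589756-107590055 (plus) for Serpinb8 and chr7:99353190-99353489 (minus) for Serpinh1. Capitals mark matches to the motifs named after the sequences, on either strand.
Serpinb6b: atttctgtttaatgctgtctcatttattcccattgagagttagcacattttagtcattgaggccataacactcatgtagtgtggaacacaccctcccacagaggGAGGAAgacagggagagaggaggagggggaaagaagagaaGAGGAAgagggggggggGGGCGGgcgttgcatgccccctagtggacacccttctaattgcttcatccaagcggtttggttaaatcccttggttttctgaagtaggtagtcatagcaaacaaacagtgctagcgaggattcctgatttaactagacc
Serpinb9: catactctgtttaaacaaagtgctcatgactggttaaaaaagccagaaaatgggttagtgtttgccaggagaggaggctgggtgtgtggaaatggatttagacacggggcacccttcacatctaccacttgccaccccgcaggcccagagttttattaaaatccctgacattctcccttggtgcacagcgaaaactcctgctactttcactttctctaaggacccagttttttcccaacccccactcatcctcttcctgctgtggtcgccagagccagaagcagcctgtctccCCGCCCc
Serpinb9b: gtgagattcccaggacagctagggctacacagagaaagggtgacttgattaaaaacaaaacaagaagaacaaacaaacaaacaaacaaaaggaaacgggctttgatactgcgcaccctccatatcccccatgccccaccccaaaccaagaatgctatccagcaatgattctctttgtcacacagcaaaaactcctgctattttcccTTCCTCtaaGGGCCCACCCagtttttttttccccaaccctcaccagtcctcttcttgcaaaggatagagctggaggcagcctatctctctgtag
Serpinb8: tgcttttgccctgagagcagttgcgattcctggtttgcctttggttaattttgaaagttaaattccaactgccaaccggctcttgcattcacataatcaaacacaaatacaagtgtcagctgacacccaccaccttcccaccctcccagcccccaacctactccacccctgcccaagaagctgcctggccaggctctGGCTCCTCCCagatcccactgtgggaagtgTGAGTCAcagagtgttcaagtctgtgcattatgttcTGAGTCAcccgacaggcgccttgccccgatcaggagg
Serpinh1: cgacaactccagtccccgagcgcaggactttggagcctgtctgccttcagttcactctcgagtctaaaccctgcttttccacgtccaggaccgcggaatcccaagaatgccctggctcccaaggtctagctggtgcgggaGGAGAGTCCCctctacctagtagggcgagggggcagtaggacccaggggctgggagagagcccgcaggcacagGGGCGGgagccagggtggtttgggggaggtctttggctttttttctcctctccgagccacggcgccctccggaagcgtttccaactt

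The 9 motifs searched, on both strands, were AP-1 (TGANTCA), a kappaB core (GGG and CC with 5 bases between them), an ETS purine box (GAGGAA), a heat shock element (GAANNTTC), STAT (TTCNNNGAA), the CCAAT box (CCAAT), the TATA box (TATAAA), an E box (CACGTG) and the GC box (GGGCGG). Serpinb8 held 2 AP-1 matches, at -23 and 14 from the start, a motif found in 7.81% of the 32851 promoters in the table. Serpinb6b held 2 ETS purine boxes and Serpinb9b 1, a motif in 28.3% of promoters. A kappaB core was in Serpinb9b, Serpinb8 and Serpinh1, and in 50.8% of all promoters. A GC box was in Serpinb6b, Serpinb9 and Serpinh1, and in 35.7% of all promoters. No motif was in all 5. The promoters of Serpinb9 and Serpinb9b were 59.6% identical in a pairwise alignment, while those of Serpinb9d, Serpinb9e, Serpinb9f and Serpinb9g were 83.2% to 93.4% identical among themselves and 45.2% to 48.9% identical to either. A match describes letters and is neither a site nor a cause.

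The members of clades F, G and H did not follow one pattern. Serpinf1 encodes PEDF, a secreted serpin without protease inhibition that restrains blood vessel growth and is released by adipocytes. It measured 9.85, 9.66, 9.73, 9.89 and 9.82 in HFD+CR mice. HFD mice ran from 9.89 to 10.03 with a median of 9.94, and LFD mice from 8.84 to 9.51 with a median of 9.30. Every HFD+CR and HFD mouse exceeded every LFD mouse. Serpinf1 was 1.63-fold higher in HFD than in LFD (0.70 ± 0.08, adjusted p 5.15e-06) and 1.45-fold higher in HFD+CR than in LFD (0.54 ± 0.09, adjusted p 0.000818). The difference between HFD+CR and HFD, -0.16 ± 0.09, was not called (adjusted p 0.249), although the HFD+CR values all lay below the HFD values, the nearest pair of them both at 9.89, and it was called in a fit of those 2 groups alone (adjusted p 0.0336). Serpinf2, the plasmin inhibitor of the same clade, was dim at a mean of 6.52 and was not called in any comparison.

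Serping1, the C1 inhibitor that restrains the first complement proteases and plasma kallikrein, was the brightest serpin. It measured 13.20, 12.94, 12.97, 12.98 and 12.88 in HFD+CR mice, 12.92 to 13.09 with a median of 13.04 in HFD mice, and 12.53 to 12.72 with a median of 12.64 in LFD mice. HFD+CR and HFD mice overlapped, and both lay wholly above LFD mice. Serping1 was 1.31-fold higher in HFD than in LFD (0.39 ± 0.05, adjusted p 1.81e-05) and 1.28-fold higher in HFD+CR than in LFD (0.36 ± 0.06, adjusted p 0.000486). The difference between HFD+CR and HFD was -0.03 ± 0.06 (adjusted p 0.78).

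Serpinh1, the chaperone HSP47 that folds procollagen in the endoplasmic reticulum, was the member whose HFD+CR values fell furthest below HFD after Serpinb9b. It measured 11.40, 11.34, 11.19, 11.14 and 10.94 in HFD+CR mice, 11.61 to 11.83 with a median of 11.74 in HFD mice, and 11.17 to 11.73 with a median of 11.41 in LFD mice. All HFD+CR mice lay below all HFD mice, and LFD mice spread across both. Serpinh1 was lower in HFD+CR than in HFD by -0.53 ± 0.09 (adjusted p 0.000332) and higher in HFD than in LFD by 0.30 ± 0.08 (adjusted p 0.0118). The call of HFD against LFD was lost without the 4 arrays with muscle or gland transcripts (0.22, adjusted p 0.0877) and without all 7 such arrays (0.18, adjusted p 0.225). The difference of -0.23 ± 0.09 between HFD+CR and LFD was not called (adjusted p 0.125). It was called without LFD mouse 3 (-0.28, adjusted p 0.0444), without the 4 arrays (-0.35, adjusted p 0.0383) and without the 7 arrays (-0.46, adjusted p 0.0247).

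Clade A gave no call. None of its 15 members was called in any comparison by limma, and none reached an unadjusted p under 0.05. Their means ran from 5.22 to 7.06, and 12 of the 15 lay below the median of every array. They were Serpina11, Serpina16, Serpina9 and Serpina10, an inhibitor of factor Xa, together with the alpha-1-antitrypsin genes Serpina1a, Serpina1b, Serpina1c, Serpina1d and Serpina1e, and the related Serpina1f. The others were the protein C inhibitor Serpina5, the corticosteroid carrier Serpina6, the thyroxine carrier Serpina7, the kallistatin pseudogene Serpina4-ps1, and Serpina12. Serpina12 encodes vaspin, a serpin described in adipose tissue that inhibits kallikrein 7. It measured 6.03, 6.07, 5.86, 6.05 and 5.95 in HFD+CR mice, 6.07 to 6.18 with a median of 6.13 in HFD mice and 5.86 to 6.28 with a median of 5.95 in LFD mice. The ranges of HFD and LFD mice overlapped through LFD mice 1 and 2. Its difference of 0.12 ± 0.06 between HFD and LFD was not called (adjusted p 0.196), but was without LFD mouse 1 (0.17, adjusted p 0.0190), with all signals below the array medians.

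Other members of clades C, D, E and I were dim as well. Antithrombin Serpinc1, heparin cofactor II Serpind1, Serpine3, the neuronal tissue plasminogen activator inhibitor Serpini1 and Serpini2 averaged between 5.10 and 6.35 and were not called. In clade B the uncalled dim members were Serpinb1c, Serpinb3a, Serpinb3c, Serpinb3d, Serpinb5, Serpinb6c, Serpinb6d, Serpinb6e, Serpinb9c, Serpinb9d, Serpinb9g, Serpinb11 and Serpinb13, with means of 4.82 to 6.65. Serpinb1c differed by -0.33 in HFD+CR against HFD without a call (adjusted p 0.0634), was called lower without the 4 arrays with muscle or gland transcripts (-0.38, adjusted p 0.0399) and was not without the 7 arrays (-0.28, adjusted p 0.202). Over the 36 members with no call, differences ran from -0.43 to 0.19 in HFD against LFD, from -0.33 to 0.34 in HFD+CR against HFD, and from -0.59 to 0.13 in HFD+CR against LFD.

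The target proteases and pathway partners of the serpins gave a mixed picture. The lists were written with earlier results of these data known, and their counts stand beside the shares over all genes given above. Most genes of the pathway lists were bright, such as 13 of 19 coagulation genes, but only 4 of 13 in the kallikrein list. For bright genes the closer shares are 25.8% higher and 15.6% lower in HFD against LFD. They are 12.1% and 17.8% in HFD+CR against HFD, and 9.4% and 5.17% in HFD+CR against LFD. Granzymes and leukocyte serine proteases, the targets of the clade B inhibitors, held few calls: none of 13 was higher in HFD than in LFD by limma (2 at an unadjusted p under 0.05) and 1 was lower, Elane by -0.31. Gzmb differed by -0.10, Gzmm by 0.03 and Gzma by 0.01, none called. After restriction Elane was higher than in HFD by 0.39 and Gzma lower by -0.27. The cysteine cathepsins, targets of some clade B serpins in the lysosome and cytosol, moved widely: HFD had 6 of 10 higher and 1 lower than LFD had, and HFD+CR had 7 lower than HFD had. Ctsk, the collagen-cleaving cathepsin of macrophages and osteoclasts, was higher by 2.70 and then lower by -1.67, Ctss by 1.92 and -1.19, Ctsz by 0.88 and -0.54, and Ctsl by 0.86 and -0.55. The HFD+CR mice had 4 higher and 2 lower than LFD mice had, with Ctsk at 1.03, Ctss at 0.73 and Ctsc at -0.44.

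Calls among the partners of Serpinh1 went mostly its way in HFD against LFD and in HFD+CR against HFD, but not in HFD+CR against LFD. Of 16 genes for collagen folding and modification in the endoplasmic reticulum, 11 were higher with the high-fat diet and none was lower by limma or at an unadjusted p under 0.05. HFD+CR mice had 7 of them lower and 1 higher than HFD mice had. Plod2, a lysyl hydroxylase, was higher in HFD by 0.93, Colgalt1 by 0.68, P3h1 by 0.62 and Plod1 by 0.47, and in HFD+CR against HFD Colgalt1 was lower by -0.50 and Plod1 by -0.41. Of 11 fibrillar collagen and cross-linking genes, 9 were higher in HFD than in LFD and 9 lower in HFD+CR than in HFD, with none the other way in either by limma (nor at an unadjusted p under 0.05). Col1a1 differed by 0.91 and -0.88 in these comparisons, Lox by 0.85 and -0.31, Pcolce by 0.79 and -0.57, and Col3a1 by 0.49 and -0.75. Against LFD, 4 of the 16 and 2 of the 11 were higher in HFD+CR, among them Plod2 by 0.59 and Lox by 0.53. None was lower there by limma, with 1 of the 11 lower at an unadjusted p under 0.05, while Serpinh1 differed by -0.23 without a call.

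The complement genes around Serping1 split. With the high-fat diet 5 of 10 were higher and 2 lower, and with restriction 4 were lower and 1 higher. C1qb was higher in HFD by 1.07 and C1qc by 0.90, while the protease Masp1 was lower by -0.91 and C2 by -0.76. C1ra, a protease that the C1 inhibitor blocks, was higher by 0.24, and C1s1 by 0.21 without a call. Restriction left C1qa lower by -0.70 and C2 higher by 0.62 than in HFD. Relative to LFD, 2 were higher in HFD+CR, C1s1 by 0.46 and C1qb by 0.43, and Masp1 was lower by -1.04.

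In plasminogen activation and fibrinolysis 7 of 14 genes were higher in HFD than in LFD and 6 lower in HFD+CR than in HFD, with none the other way by limma or at an unadjusted p under 0.05. Thbs1 was higher in HFD by 1.29 and lower in HFD+CR by -0.77, the urokinase gene Plau by 0.89 and -0.60, its receptor Plaur by 0.75 and -0.47, and Plat by 0.44 and -0.21. Plau at 0.29 (adjusted p 0.0472) and Plat at 0.22 (adjusted p 0.0388) were also higher in HFD+CR than in LFD, a count of 2 that ran from 0 to 3 over the 20 fits that left out 1 mouse or several. Plasminogen itself, Plg, was dim at 6.79 and not called. Of 19 coagulation genes, high-fat feeding gave 5 higher and 1 lower, restriction gave 3 higher and 2 lower, and HFD+CR set against LFD gave 4 higher and 1 lower. F7 differed by 1.44 and -1.09 in the first pair of comparisons and Pros1, the cofactor of protein C, by 0.78 and -0.48. F2r, the thrombin receptor, was higher in HFD by 0.69. The thrombin-binding Thbd was lower in HFD by -1.19, higher in HFD+CR than in HFD by 0.52 and lower in HFD+CR than in LFD by -0.68.

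The list of tissue kallikreins and membrane proteases holds targets of vaspin and related serpins, and also the growth factor gene Hgf. None of its 13 genes was called in HFD against LFD by limma, with 1 higher and 1 lower at an unadjusted p under 0.05. The smallest p were those of Hgf at 0.28 (adjusted p 0.0647) and Klk14 at -0.17 (adjusted p 0.125). Only Hgf, which is not a protease gene of this kind, was called after restriction, lower by -0.45 than in HFD. Klk7 averaged 7.10 and differed by 0.07 between HFD and LFD. Of 12 genes of corticosteroid and thyroid hormone handling, the pathways of the carriers Serpina6 and Serpina7, 4 were lower in HFD than in LFD, with Hsd11b1 at -0.52, Thra at -0.46, Thrb at -0.35 and the glucocorticoid receptor Nr3c1 at -0.31. Restriction gave 5 higher and 1 lower than in HFD, Per1 by 0.77, Hsd11b1 by 0.50 and Dio2 by -0.41. Relative to LFD the restricted mice had 2 higher and 3 lower. Of 14 genes of TGF beta, hypoxia and related regulation, high-fat feeding gave 5 higher and 2 lower, and restriction gave 4 higher and 5 lower than in HFD. Tnf was higher in HFD by 0.80 and lower in HFD+CR by -0.71, and Tgfb1 by 0.75 and -0.60. Nr1d1, one of the related regulators and not a TGF beta or hypoxia gene, was lower in HFD by -0.38 and higher in HFD+CR than in HFD by 1.10. Relative to LFD 3 of the 14 were higher in HFD+CR, among them Nr1d2, again a related regulator, by 1.14.

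Markers of cell types moved with the serpin changes, and their part in them was not tested. Of 12 macrophage genes, 10 were higher in HFD than in LFD, 10 lower and 1 higher in HFD+CR than in HFD, and 4 higher in HFD+CR than in LFD. The mean of the macrophage list relative to the median mouse ran from -0.22 to 0.20 in HFD+CR mice, from 0.41 to 0.90 in HFD mice and from -0.64 to -0.28 in LFD mice, so these ranges do not overlap and stand in the same order as Serpinb9b. Fibroblast and progenitor genes were higher in 5 of 9 in HFD against LFD, lower in 3 in HFD+CR against HFD and higher in 3 in HFD+CR against LFD. Their mean ran from -0.18 to 0.11 in HFD+CR mice, 0.17 to 0.39 in HFD mice and -0.30 to -0.12 in LFD mice. Adipocyte genes ran the other way, with 9 of 12 lower and 1 higher in HFD against LFD, and 8 higher in HFD+CR against HFD. Among T and NK cell genes, which mark the cells that make granzymes, 2 of 10 were lower in HFD than in LFD, a count that ran from 0 to 2 over the 20 fits that left out 1 mouse or several.

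Within the HFD mice Serpinb9b followed the macrophage list closely. Across the 6 HFD mice Pearson's r was 0.962 (exact permutation p 0.00139, adjusted 0.0222) and Spearman's rho was 1 (exact permutation p 0.00278, adjusted 0.0444). Without the 2 mice farthest from the median of the list r was 0.965. Across the 6 LFD mice, where Serpinb9b lay near the array medians, r was -0.30 (exact permutation p 0.588). Without the 2 LFD mice farthest from the median of the list r was 0.783, so its sign in LFD mice turned on 2 mice. The 16 relations computed took the 8 bright members called higher in HFD than in LFD, in HFD and LFD mice each. The bright Serpinb1a and Serpinb2, without that call, were left out. These relations were chosen after values were seen. The p-values are adjusted over the 16 relations, which does not cover that choice. No other relation passed the adjustment. Serpinb6b in HFD mice had r 0.926, and Serpinb8 and Serpinb9 in LFD mice had r 0.888 and 0.831, each with an adjusted exact permutation p of 0.0667. By Spearman's rho the adjusted exact permutation p of these relations were 0.329, 0.178 and 0.178. In the other group r was -0.48 for Serpinb6b in LFD mice, and 0.47 for Serpinb8 and 0.18 for Serpinb9 in HFD mice. No relation was computed over the 5 HFD+CR mice. The macrophage list was the only list set against the serpins in this way. Whether Serpinb9b followed it more closely than other lists was not tested. The fibroblast and progenitor list was also highest in HFD mouse 6 (0.39) and lowest in HFD mouse 5 (0.17), where Serpinb9b was 9.54 and 8.70.

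**Figure D4:**
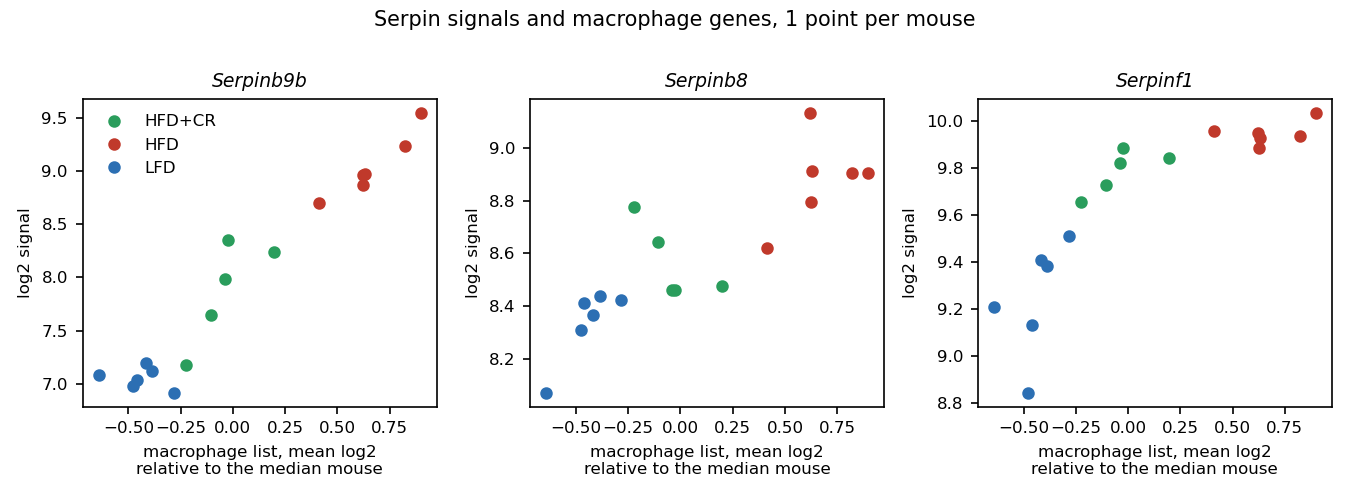
Log2 signal (vertical axes) of Serpinb9b, Serpinb8 and Serpinf1 against the mean of 12 macrophage genes relative to the median mouse (horizontal axes, log2), 1 point per mouse, in green for HFD+CR, red for HFD and blue for LFD. Within HFD mice Serpinb9b rises with the list (r 0.962), Serpinb8 and Serpinf1 had r of 0.465 and 0.437, and the groups lie apart along the horizontal axis. Without the 2 HFD mice farthest from the median of the list, r was 0.965 for Serpinb9b, -0.166 for Serpinb8 and 0.250 for Serpinf1.

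The other cell type lists are given by their counts. In HFD against LFD, mesothelium had 1 of 10 genes lower, endothelium 1 of 10 lower, B and plasma cells 2 of 9 lower, neutrophils 1 of 10 higher and 1 lower, urothelium and squamous epithelium 1 of 10 lower, germ cells 1 of 10 higher, and hepatocyte and plasma proteins 1 of 9 lower, which was Alb at -2.36. After restriction 5 of the 10 mesothelium genes were higher than in HFD. Over the 20 fits that left out 1 mouse or several, this count ran from 0 to 7, and that of B and plasma cell genes lower in HFD from 0 to 6. Skeletal muscle, gland and epididymis lists had no call in any comparison by limma. At an unadjusted p under 0.05, 2 muscle genes were lower in HFD than in LFD and 1 lower in HFD+CR than in LFD, as was 1 epididymis gene. The dim members Serpina1f, Serpina5, Serpinb11 and Serpinb5 were highest in single mice with such transcripts, whose part in this was not tested. Serpina1f reached 7.86 in LFD mouse 2, whose epididymis list stood at 0.61, and 7.01 in HFD mouse 5, where it stood at 0.28, while every other mouse was at or below 6.66. Serpina5 reached 6.52 in HFD+CR mouse 1, the mouse with the germ cell transcripts. Serpinb11 and Serpinb5 were highest in LFD mouse 3, at 6.06 and 5.60, the mouse with the highest gland list and a urothelium list of 0.49.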

How the data were processed

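The authors deposited log2 expression values per probe set, and the submitters' processing notes name RMA, limma and R 3.5.0, in no stated order. Total RNA had an integrity number above 7 per the labels. No hybridisation or scan batch is given in the sources used here, and precision is limited by the number of arrays. RMA's background step compresses differences of dim genes. Of 33793 probe sets, 23521 had 1 gene symbol, 1814 several and 8458 none. The probe set with the highest mean over 17 arrays stood for each of 22180 genes, with no filter on dim signals.

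One mean per diet group was estimated for every gene with limma 3.58.1 under R 4.3.3 (all arrays, lmFit, eBayes, 14 residual and 3.63 prior degrees of freedom), two-sided, with Benjamini-Hochberg adjustment over all genes and a threshold of 0.05. Tables and figures used Python 3.11.15 with pandas 2.3.3, scipy 1.17.1 and matplotlib 3.10.9. Correlations used exact permutation. The fit was tested on simulated data.

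The members and the 10 pathway and 14 marker lists (132 and 144 genes measured) were chosen with earlier results of these data known. Members called with at least a 1.5-fold difference, and Serpinf1, Serping1, Serpinh1 and Serpina12, were given by mouse. Serpinb8, Serpinb9 and Serpinb2 were also given by mouse, chosen after their values were seen. Other called members were given by their difference, and uncalled ones by their range. Of each pathway list up to 4 called genes with the largest difference per comparison, or, failing any call, the 2 of smallest p, could be named; C1ra, C1s1, Plg, F2r, Klk7, Gzmb and Gzmm were added for their roles. Alternatives were leaving out each mouse, a block for the mouse number, a filter to genes above the median level, averaged or singly tested probe sets, other normalizations, only the groups compared, trend and robust moderation, array weights, stricter thresholds, arrays with other tissue left out and low signals set to the array median. Leaving out 7 arrays was chosen after seeing the data. Same-numbered mice did not deviate together in every pair, so the mice were not treated as paired. Genes with no probe set of their own in the annotation were not analysed here.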

Additional observations from a re-analysis of the deposited data

Results flagged for a closer look

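In 14 of 147 groups of a member's values 1 mouse stood far from the others, by Dixon's gap criterion. Chance gives about 1 in 20 groups, here about 7.4. None of these values was left out. Most were in dim members. Serpina1f was 7.86 in LFD mouse 2, Serpina5 6.52 in HFD+CR mouse 1, Serpina16 5.73 and Serpinf2 6.84 in HFD mouse 5, and Serpina11 was low at 6.56 in LFD mouse 3. Serpinb11 had such a mouse in every group, HFD+CR mouse 2 at 5.69, HFD mouse 5 at 5.67 and LFD mouse 3 at 6.06. Serpinb3a was 5.22 in LFD mouse 6, Serpinb6d low at 5.15 in LFD mouse 3 and Serpinb9c low at 5.21 in LFD mouse 1.

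Among the bright members, Serpinb2 was 8.42 in HFD+CR mouse 2, Serpinb8 low at 8.07 in LFD mouse 6 and Serping1 high at 13.2 in HFD+CR mouse 1. The calls of Serpinb8 and Serping1 did not change without those mice.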

How the results depend on the processing

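Serpinb9b kept its direction and its call in all 3 comparisons under all 32 alternatives, and so did Serpinb6b and Serpinf1 in HFD against LFD. The alternative with singly tested probe sets takes the smallest p per gene, so it could hardly end a call. The dimmer Serpinb9b probe set alone gave no call in HFD+CR against LFD (0.02, adjusted p 0.923 by limma). Averaging its probe sets brought the Serpinb9b difference in HFD against LFD down to 1.13. No called difference changed sign. The count of members higher in HFD than in LFD was 10, ranged from 9 to 11 without single mice and was 3 at 1.5-fold or more. With 4 arrays left out it was 9, and with 7 arrays left out it was 7. The count lower, 2, ranged from 0 to 2 without single mice. It was 1 with centred arrays or array weights. It was 0 with genes above the median level, repeated quantile normalization, the 1.5-fold or 0.01 threshold, 4 or 7 arrays left out, or low signals set to the array median. In HFD+CR against HFD the count lower was 5 and ranged from 3 to 6 without single mice (3 without HFD+CR mouse 4, HFD mouse 1 or HFD mouse 2). It was 1 at 1.5-fold, 2 at the 0.01 threshold and 3 without 7 arrays. The count higher, 0, ranged from 0 to 1 without single mice (Serpinb6d without LFD mouse 3) and was 1 with array weights or trend and robust moderation. In HFD+CR against LFD the count higher was 5 and ranged from 3 to 6 without single mice. It was 3 without any 1 of HFD+CR mice 1, 2 and 3 or LFD mice 1 and 3. It was 1 at 1.5-fold, and 3 at the 0.01 threshold, with only the groups compared or without HFD+CR mouse 1. The count lower, 0, ranged from 0 to 1 (Serpinh1 without LFD mouse 3) and was 1 with array weights or without 4 or 7 arrays. Fewer arrays or genes enter some of these fits; otherwise the cause was not tested. Members dim on every array have no value once low signals are set to the array median.

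With the mouse number as a replicate block, HFD had 9 members higher and 2 lower than LFD, with 4 lower in HFD+CR than in HFD, and 4 higher in HFD+CR than in LFD. The calls of Serpinb6b (-0.35, adjusted p 0.0663) against HFD, Serpinb1b and Serpinb9f were lost. Deviations of same-numbered mice correlated between -0.11 and 0.41, so the numbers are not taken as pairs. Over the 20 fits that left out 1 mouse or several, counts of 1 lower in HFD+CR than in HFD ran from 0 to 1 for the hormone and the granzyme lists, and the 2 TGF beta and hypoxia genes lower in HFD ran from 1 to 2. Signals near the array medians limit what can be said of the 36 members that lay below them on every array.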
